A study of Mus musculus with 6 samples.

Results

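Genes of the enzymes and motor proteins that write, read and remove histone marks or move nucleosomes were compared between marrow of ASXL1-MT-transplanted mice and control marrow of mock-transplanted mice. The genes were taken by name from the array's annotation: every probe set with exactly 1 gene symbol that starts with Kdm, Hdac, Setd, Smarc or Kmt2, or with Chd, Kat, Brd or Prmt directly followed by a number, leaving out Kdm5c, Kdm5d and Kdm6a. This gave 86 of 18193 genes and 207 of 45037 probe sets. They are 15 Kdm genes (lysine demethylases), 11 Hdac genes (histone deacetylases), 10 Setd genes (proteins with a SET domain), 13 Smarc genes (mostly SWI/SNF remodeller subunits), 5 Kmt2 genes (the mixed lineage leukaemia family), 10 Chd genes (chromodomain helicases), 8 Kat genes (lysine acetyltransferases), 6 Brd genes (bromodomain proteins) and 8 Prmt genes (arginine methyltransferases).

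The 6 Affymetrix mouse arrays hold 3 samples labelled ASXL1Mt, from ASXL1-MT-transplanted mice with a disease like myelodysplastic syndrome, and 3 labelled mock, from mock-transplanted normal control mice. Both groups are labelled myeloid bone marrow. The series text says that cells of both groups were depleted of CD3e, B220 and TER-119 positive cells. This takes out T, B and red cells, and any other cell type that carries one of these antigens. The sample labels state the depletion for mock alone, so whether both groups were depleted alike is not settled. Strain, age, the vector and the ASXL1 allele behind the letters MT are not given in the sources used here, nor is what the mock mice received or whether each array is a separate mouse, so the p-values cover the variation among these arrays alone, and that variation may be technical.

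ASXL1 is a chromatin protein whose truncating mutations are frequent in myelodysplastic syndrome in humans. It works with the deubiquitinase BAP1 on histone H2A and has been tied to Polycomb repression. Acetyltransferases and bromodomain readers are associated with active genes, deacetylases with silencing, and lysine or arginine methylation can do either, depending on the residue. Remodellers of the SWI/SNF, ISWI and CHD classes use ATP to slide or evict nucleosomes. Several of these genes, above all Kmt2a, are targets of chromosomal translocations in human leukaemia.

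The deposited values are log values, read here as log2, centred on each probe set's median over the 6 arrays, so that a value is a distance from that median and absolute levels are unknown. A change is the ASXL1Mt mean minus the mock mean of these centred values, on the log2 scale, and a gene's value is the mean of its probe sets. Where the groups do not overlap, centring puts the nearest arrays of both groups of a probe set equally far from 0. A gene or probe set is said to rise or fall where limma's test over all genes or all probe sets gave an adjusted p under 0.05. A probe set is called bright where its 3 highest arrays lie on a rounding step which corresponds, at base 2, to signals from 256 upward, although dimmer probe sets can land there too. Without overlap these 3 arrays are all of the same group, so a probe set can be bright through its higher group alone. Of the 207 probe sets, 128 (61.8%) were bright, against 38.2% of all probe sets. The median SD within groups was 0.16 for the bright and 0.53 for the other probe sets of these genes.

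Promoters are shown for genes that changed in each direction. RefSeq windows of the 250 bases before the annotated start (build GRCm38.p6) were matched by symbol for 68 of the 86 genes, among them 7 of the 8 genes that changed; the exception is Chd7. Shown are Kdm1b (chr13:47043249-47043498, plus strand) and Prmt2 (chr10:76237866-76238115, minus strand), which rose, and Prmt9 (chr8:77549147-77549396, plus strand), which fell. Each runs 5′ to 3′, and capitals mark GGGCGG or its reverse complement CCGCCC, the core of the GC box.
Kdm1b: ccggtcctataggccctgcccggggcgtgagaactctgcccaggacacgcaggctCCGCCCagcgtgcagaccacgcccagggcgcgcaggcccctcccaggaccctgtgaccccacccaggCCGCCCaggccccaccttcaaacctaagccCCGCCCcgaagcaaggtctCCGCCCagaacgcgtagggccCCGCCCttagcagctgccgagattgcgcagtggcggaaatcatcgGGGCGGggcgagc
Prmt2: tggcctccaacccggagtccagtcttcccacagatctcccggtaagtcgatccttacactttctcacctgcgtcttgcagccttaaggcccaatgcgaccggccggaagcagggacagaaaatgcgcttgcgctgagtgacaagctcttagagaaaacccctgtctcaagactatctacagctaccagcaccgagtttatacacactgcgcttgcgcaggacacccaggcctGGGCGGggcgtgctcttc
Prmt9: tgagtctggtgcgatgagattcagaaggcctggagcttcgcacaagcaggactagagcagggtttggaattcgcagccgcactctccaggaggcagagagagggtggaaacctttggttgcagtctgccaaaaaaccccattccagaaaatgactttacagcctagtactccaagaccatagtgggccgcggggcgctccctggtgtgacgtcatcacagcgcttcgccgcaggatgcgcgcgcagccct
The Kdm1b window holds 6 copies on both strands together and has 71.6% G and C, Prmt2 holds 1 copy at 57.2%, and Prmt9 holds 0 at 57.6%. The window of Kat2a, which rose, also holds 0 copies. Of the 10 windows of the 7 changed genes that have one, 7 hold a copy. Whether copies go with the direction of change was not tested. GGGCGG on either strand, with overlapping copies counted, is in 63.7% of the 91 windows of the 68 genes and in 32.7% of all 32851 windows of the same length. Median G and C content was 63.6% for the 91 windows, against 52.4% for all windows. CCAAT and TATAAA were searched on both strands as well. CCAAT is in 34.1% of the windows of these genes and in 33.8% of all windows, TATAAA in 4.40% and 12.4%, and the palindrome CACGTG in 4.40% and 6.02%. A match is a match of letters alone and says nothing of a factor's binding.

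Of the 86 genes, 6 rose and 2 fell in ASXL1Mt marrow. Kdm1b, Kdm2b, Hdac2, Setd6, Kat2a and Prmt2 rose, and Chd7 and Prmt9 fell. These are 6.98% higher and 2.33% lower, against 6.63% higher and 4.75% lower among all 18193 genes. In either direction 9.30% were called, against 11.4% of all genes, so the share called was near or below the background. At an unadjusted p under 0.05 as deposited, 22 genes were higher (25.6%, against 18.1% of all genes) and 7 lower (8.14%, against 10.9%). These counts depended on the scaling of the arrays. They were 17 and 9 after cyclic loess, 18 and 9 after quantile normalization, and 18 and 8 with equal array medians. Shares of all genes are not given for those fits. The ASXL1Mt and mock arrays did not overlap in 41 genes, with ASXL1Mt higher in 32 (37.2%, against 23.5% of all genes) and lower in 9 (10.5%, against 14.4% of all genes). The median change of the 86 genes was 0.23, which is 0.12 above the median of all genes, and single genes ranged between -2.01 and 1.50.

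On the level of probe sets, 13 of 207 rose and 7 fell, or 6.28% and 3.38%, against 4.73% and 3.37% of all probe sets (20, or 9.66%, in either direction, against 8.10%). Without ASXL1Mt replicate 1 the counts were 4 and 2, without mock replicate 1 or 3 they were 0 and 1, and without ASXL1Mt replicate 2 or 3 or mock replicate 2 they were 0 and 0. Cyclic loess ended the probe set calls in Kdm1b, Kat2a, Kat2b, Kmt2a and Chd9 and that of 1459861_s_at in Kdm2b, equal array medians those in Kdm1b, Kat2a, Kat2b and Kmt2a, quantile normalization those in Kdm1b and Kat2b, and trend and robust variance those of 1416844_at in Prmt2 and 1457301_at in Prmt9. The 20 probe sets called as deposited belong to 16 genes, and 15 of the 20 were bright. In none of the 86 genes did 1 probe set rise while another fell. Of the 61 genes with several probe sets, 37 had changes of 1 sign in all of them. As deposited, the higher calls made up 65.0% of the calls among these probe sets and 58.4% among all probe sets. With equal array medians the shares were 50.0% and 49.9%, after quantile normalization 50.0% and 47.9%, and after cyclic loess 44.4% and 46.2%. Among the 86 genes, calls were 6 higher and 2 lower as deposited, 5 and 4 with equal array medians and after quantile normalization, and 2 and 3 after cyclic loess. The median change of all genes, 0.11 as deposited, was 0.01 after cyclic loess.

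Of the 8 called genes, Chd7 and Kat2a kept their call without ASXL1Mt replicate 1, and Chd7 alone kept it in each of the fits without ASXL1Mt replicate 2 or 3 or mock replicate 1, 2 or 3. Cyclic loess ended the calls of Hdac2, Kat2a, Kdm1b and Setd6, and leaving out _s_at and _x_at probe sets those of Hdac2, Kat2a and Setd6. Markers of blood cell types differed between the same arrays. The counts below stand against 6.63% of all genes that rose and 4.75% that fell. Of 10 mature neutrophil marker genes 6 fell and 0 rose, with list medians of -0.99, -0.45 and -0.73 on the ASXL1Mt arrays, against 0.72, 0.46 and 0.64 on the mock arrays. Of 11 dendritic cell markers 9 rose and 0 fell, with list medians of 1.12, 0.94 and 0.92 on the ASXL1Mt arrays, against -1.56, -0.92 and -1.07 on the mock arrays. Stem and progenitor markers rose in 5 and fell in 1 of 11 cases, and megakaryocyte markers rose in 0 and fell in 5 of 8. In the lists that hold T, B or red cell markers, T and NK cell markers rose in 3 and fell in 1 of 10 cases. B cell markers rose in 2 and fell in 0 of 9. Erythroid markers rose in 1 and fell in 0 of 8, all 8 with positive changes. Changes were positive in only 3 of the 9 B cell markers, whose median change was -0.13, and in 5 of the 10 T and NK cell markers. Monocyte and macrophage markers rose in 1 and fell in 2 of 8 cases. Of 10 cell cycle genes 2 rose and 0 fell. A bright probe set was found for 9 of the 10 neutrophil, 8 of the 11 dendritic cell and 3 of the 10 T and NK cell markers. Fewer cells of a type and less RNA per cell cannot be told apart in such bulk samples, and the part of cell composition in any result given here was not tested. The part of unequal depletion in any marker difference, that of the dendritic cell markers included, was not tested either.

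**Figure D1:**
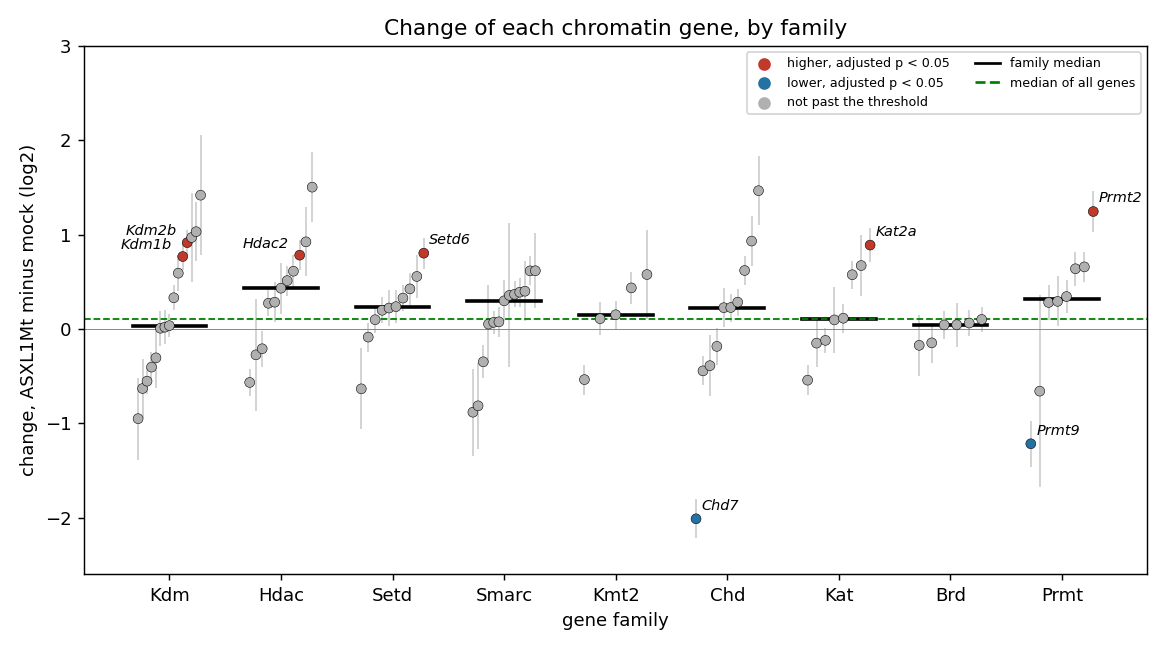
Change of each of the 86 chromatin genes (vertical axis, ASXL1Mt minus mock, log2) by family (horizontal axis), sorted by change within a family. Points are genes with their standard errors, black bars are family medians and the dashed line is the median of all genes, 0.11; the medians of the Kdm and Brd genes, 0.035 and 0.044, turn negative when the arrays are rescaled, and Chd7 at -2.01 lies lowest.

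In the demethylase family, 2 of 15 genes rose (13.3%, against 6.63% of all genes) and 0 fell (against 4.75%). These shares of all genes are the background for the calls in each family below as well. A family holds few genes, and no difference from the background was tested. Both flavin-dependent genes and both JmjC genes with a CXXC DNA-binding domain were higher in every ASXL1Mt array than in every mock array, while the other 11 JmjC genes ranged between -0.95 and 1.42 and 0 of them passed limma's test (at an unadjusted p under 0.05, Kdm8 was higher and Kdm7a lower). The median change of the 15 Kdm genes, 0.035, which is -0.074 once the median of all genes is taken off, was -0.078 after cyclic loess, -0.068 after quantile normalization and -0.046 with equal array medians.

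Kdm2b carries a CXXC domain that brings a variant Polycomb repressive complex to unmethylated CpG islands and also demethylates histone H3. It measured 0.38, 0.48 and 0.48 on the ASXL1Mt arrays, against -0.62, -0.41 and -0.38 on the mock arrays. Each ASXL1Mt array was far above each mock array. Kdm2b rose 1.89-fold (0.91 in log2 units, SE 0.14, limma adjusted p = 0.0204), and both of its probe sets rose, 1452198_at by 0.98 (adjusted p = 0.0259 by limma) and 1459861_s_at by 0.85 (adjusted p = 0.0382 by limma).

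Kdm1b, also called LSD2, removes methyl groups from lysine 4 of histone H3. Its single probe set, 1433649_at, read 0.26, 0.33 and 0.50 in ASXL1Mt, against -0.45, -0.50 and -0.26 in mock, with no overlap. The log2 change was 0.77 with SE 0.15 (adjusted p = 0.0336 by limma). Kdm1a, or LSD1, the related enzyme of the CoREST complex that is needed for blood cell maturation, read 0.19, 0.19 and 0.27 in ASXL1Mt and -0.72, -0.17 and -0.24 in mock. All ASXL1Mt arrays were above all mock arrays, but the mock arrays were spread out, and the change of 0.59 had an adjusted p = 0.111 by limma (95% interval 0.11 to 1.07). Fitted over bright probe sets alone, Kdm1a had the same change with an adjusted p = 0.031 by limma. Its probe sets count as bright through the ASXL1Mt arrays, where they are higher, so this pass is no independent support.

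Kdm2a, which binds CpG islands like Kdm2b and demethylates lysine 36 of histone H3, gave a call in 1 of 7 probe sets. Probe set 1458449_at read 1.69, 1.60 and 0.90 in ASXL1Mt, against -1.16, -0.90 and -0.91 in mock. This was the largest rise of any of the 207 probe sets, at 2.39 (adjusted p = 0.0176 by limma), but the probe set was not bright. The changes of the other 6 Kdm2a probe sets lay between -0.42 and 0.49 and did not pass, and the gene's mean change was 0.33 (adjusted p = 0.178 by limma).

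Kdm7a, a JmjC demethylase of lysines 9 and 27 of histone H3, had the opposite sign. Its probe set 1427359_at read -0.54, -0.48 and -0.56 in ASXL1Mt, against 0.48, 0.51 and 0.49 in mock, and its probe set 1435867_at read -0.46, -0.42 and -0.55 in ASXL1Mt, against 0.47, 0.42 and 0.54 in mock. Within each group the arrays were close together, and the groups were far apart. They fell by 1.02 and 0.95 (adjusted p = 0.0216 and 0.0258 by limma). As a mean of 5 probe sets, of which 2 were not bright and varied widely, Kdm7a had a change of -0.55 (adjusted p = 0.0626 by limma).

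Kdm6b, also called JMJD3, removes the Polycomb mark from lysine 27 of histone H3. It measured 0.28, -1.16 and -1.12 in ASXL1Mt, against 0.14, 0.49 and 0.22 in mock. Replicate 1 of ASXL1Mt lay among the mock arrays and the other 2 far below them. The change of -0.95 had an adjusted p = 0.22 by limma. It was -1.42 and passed without ASXL1Mt replicate 1, and from bright probe sets alone it was -1.29 (adjusted p = 0.028 by limma). Those probe sets count as bright through the mock arrays, where they are higher, so the pass in the bright fit is no independent support.

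Kdm3b, a demethylase of lysine 9 of histone H3, had probe sets that went opposite ways. Its bright probe set 1428320_at read 0.21, 0.28 and 0.29 in ASXL1Mt, against -0.25, -0.21 and -0.51 in mock, while 1458417_at, not bright, read -0.33, -0.23 and -0.22 in ASXL1Mt, against 0.26, 0.22 and 0.29 in mock. In each probe set the groups did not overlap, neither passed alone, and the gene's mean change was 0.04.

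**Figure D2:**
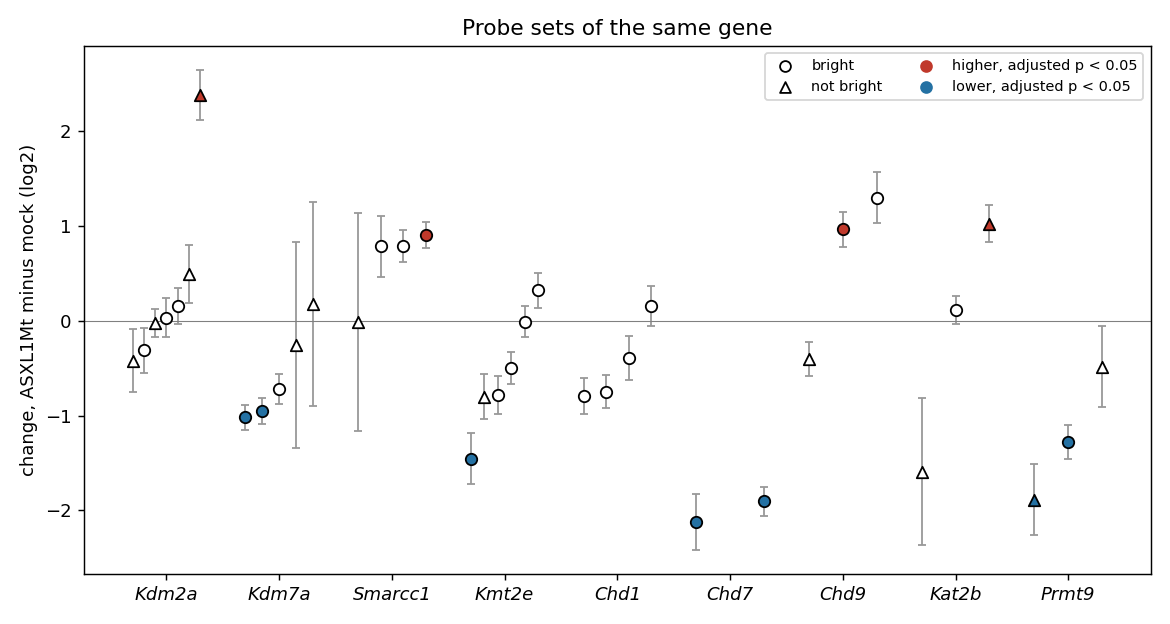
Change of every probe set (vertical axis, ASXL1Mt minus mock, log2, bars are standard errors) of 9 genes (horizontal axis), with circles for bright and triangles for other probe sets and colour for those past the threshold. Both Chd7 probe sets lie near -2, whereas 1 Kdm2a probe set at 2.39 stands apart from the other 6.

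Of the 4 class I deacetylases, 1 rose and all had positive changes as deposited. Hdac1, Hdac2, Hdac3 and Hdac8 had changes of 0.51, 0.78, 0.27 and 0.43, and in the first 3 the ASXL1Mt arrays all lay above the mock arrays. The gene that passed was Hdac2. Over the 11 Hdac genes the median change of 0.43, or 0.32 once the median of all genes is taken off, was the highest of the 9 families as deposited, and 6 of them (54.5%, against 23.5% of all genes) had ASXL1Mt arrays wholly above mock. The family's call share was 1 of 11 higher (9.09%, against 6.63% of all genes) and 0 lower (against 4.75%).

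Hdac2, a catalytic subunit of the NuRD, Sin3 and CoREST corepressors, read 0.12, 0.47 and 0.43 in ASXL1Mt, against -0.56, -0.32 and -0.45 in mock. ASXL1Mt replicate 1 was the lowest of its group but still above each mock array. The gene rose 1.72-fold (0.78 in log2 units, SE 0.16, limma adjusted p = 0.0408), although 0 of its 3 probe sets passed among all probe sets. Hdac1, its near twin in the same complexes, read 0.11, 0.35 and 0.37 in ASXL1Mt, against -0.42, -0.11 and -0.16 in mock (change 0.51, adjusted p = 0.103 by limma). Hdac3, the catalytic subunit of the NCoR and SMRT corepressors, read 0.25, 0.04 and 0.15 in ASXL1Mt, against -0.22, -0.04 and -0.11 in mock (change 0.27, adjusted p = 0.257 by limma).

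Class IIa genes, which shuttle between nucleus and cytoplasm and have little catalytic activity of their own, had changes of both signs, and 0 of 4 passed. Hdac4 was lower in all 3 ASXL1Mt arrays, at -0.32, -0.16 and -0.36, against 0.30, 0.41 and 0.15 in mock, but its change of -0.57 missed the threshold (adjusted p = 0.0652 by limma). Hdac9 was 0.34, 0.24 and 0.26 in ASXL1Mt, against -1.36, 0.02 and -0.59 in mock, a change of 0.92 with wide mock spread (adjusted p = 0.17 by limma). Hdac5 and Hdac7 had changes of -0.21 and 0.28.

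Hdac11, the sole class IV deacetylase, had the largest positive change of any of the 86 genes and did not pass. It measured 1.27, 0.79 and 0.16 in ASXL1Mt, against -1.15, -0.31 and -0.82 in mock. The groups did not overlap but were widely scattered, and the change of 1.50 had SE 0.37 (adjusted p = 0.0599 by limma). Neither of its probe sets was bright. In class IIb, Hdac6, a deacetylase of tubulin, had a change of 0.61 (adjusted p = 0.0849 by limma) without overlap, and Hdac10 one of -0.27 with overlap.

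Among SET domain genes, Setd6, which methylates the NF-kB subunit RelA, was the 1 of 10 that rose, and 0 fell. Setd6 measured 0.58, 0.62 and 0.23 in ASXL1Mt, against -0.42, -0.31 and -0.25 in mock. The groups were apart, with ASXL1Mt replicate 3 nearest to mock. Its log2 change was 0.80 with SE 0.16 (adjusted p = 0.0392 by limma), or 0.69 relative to the median of all genes. The call was lost under each of the 3 rescalings of the arrays, and 0 of the gene's 3 probe sets passed among all probe sets.

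Setd4, the gene with the next smallest p, had a change of 0.42 (adjusted p = 0.175 by limma). Its ASXL1Mt arrays read 0.16 each and its mock arrays -0.50, 0.00 and -0.29. Setdb1, which places trimethylation on lysine 9 of histone H3 to silence retroelements, read 0.22, 0.48 and 0.24 in ASXL1Mt, against 0.12, -0.62 and -0.22 in mock. Only mock replicate 1 came near the ASXL1Mt arrays, and the change of 0.56 had an adjusted p = 0.185 by limma. Setd2, which places trimethylation on lysine 36 of histone H3 and is a tumour suppressor in human leukaemia, had a change of -0.09 (95% interval -0.47 to 0.30). The groups overlapped for Setd2. The family's median change was 0.23, and 0.12 once the median of all genes is taken off.

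Of the 5 Kmt2 genes 0 passed as means of their probe sets (limma; 1 higher and 1 lower at an unadjusted p under 0.05), but single probe sets of the founding and the atypical member did. The 4 methyltransferases of lysine 4 of histone H3, Kmt2a to Kmt2d, had changes between 0.11 and 0.58, and Kmt2e, which is not known as an active methyltransferase, one of -0.54. Kmt2a, or MLL1, which maintains Hoxa gene expression in blood stem cells, read 0.18, 0.10 and 0.31 in ASXL1Mt, against -0.31, 0.01 and -0.41 in mock (change 0.44, adjusted p = 0.166 by limma). Its probe set 1452377_at read 0.28, 0.39 and 0.46 in ASXL1Mt, against -0.54, -0.28 and -0.45 in mock. All ASXL1Mt arrays were above all mock arrays in both measures, and the probe set rose by 0.80 (adjusted p = 0.0422 by limma), a call lost after cyclic loess and with equal array medians.

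Kmt2e read -0.20, -0.30 and -0.27 in ASXL1Mt, against 0.49, 0.28 and 0.07 in mock. The arrays did not overlap, and the change of -0.54 had an adjusted p = 0.0917 by limma. Of its 6 probe sets 1432602_at fell, by 1.45, with -0.50, -1.04 and -0.59 in ASXL1Mt, against 1.17, 0.50 and 0.55 in mock (adjusted p = 0.04 by limma). The other 5 ranged between -0.80 and 0.32. Kmt2d, a methyltransferase of enhancers, had a change of 0.58 with overlapping groups and a 95% interval of -0.61 to 1.76.

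The Smarc genes gave 0 calls among 13. At an unadjusted p under 0.05 by limma, 3 were higher and 0 lower, where 18.1% of all genes were higher and 10.9% lower. Under the rescalings, quantile normalization, cyclic loess and equal array medians, the family's median of 0.30 was 0.21, 0.17 and 0.22. Smarca4, or BRG1, the ATPase of SWI/SNF needed in leukaemic and normal progenitors, read 0.17, 0.17 and 0.12 in ASXL1Mt, against -0.36, -0.19 and -0.08 in mock. Each ASXL1Mt array was above each mock array, and the change of 0.37 had an adjusted p = 0.155 by limma. The alternative ATPase Smarca2, or BRM, had a change of -0.35 with overlap (adjusted p = 0.255 by limma). The core subunit Smarcb1 had a change of 0.05, with ASXL1Mt replicate 1 above the rest at 1.07 and SE 0.42.

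Single probe sets rose in 2 Smarc genes. Smarcad1, a remodeller that restores silent chromatin after replication, rose by 1.15 in 1452276_at, which read 0.47, 0.54 and 0.64 in ASXL1Mt, against -0.78, -0.57 and -0.47 in mock (adjusted p = 0.0237 by limma). As a gene it had a change of 0.62 (adjusted p = 0.0631 by limma). Smarcc1, or BAF155, a scaffold of SWI/SNF, rose by 0.90 in 1455246_at, with 0.52, 0.37 and 0.50 in ASXL1Mt, against -0.52, -0.43 and -0.37 in mock (adjusted p = 0.0291 by limma). Both probe sets were bright and without overlap. As a gene Smarcc1 had a change of 0.62 with overlapping groups (adjusted p = 0.369 by limma). Its other probe sets had changes between -0.01 and 0.79 and did not pass. The other Smarcad1 probe set, 1435651_a_at, also bright, had a change of 0.08 with overlap.

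Of 10 Chd genes 1 fell, Chd7, and 0 rose. Chd7, a remodeller found at enhancers and mutated in human CHARGE syndrome, read -1.17, -0.81 and -1.47 in ASXL1Mt, against 0.96, 0.81 and 0.82 in mock. The mock arrays lay close together, and even the nearest ASXL1Mt array, replicate 2, was far below them. The gene averaged -1.15 ± 0.33 in ASXL1Mt and 0.86 ± 0.09 in mock (SD, n = 3 each), which is 4.03-fold lower (-2.01 in log2 units, SE 0.21, limma adjusted p = 0.0115), and it ranked 205 by p among 18193 genes. It was the 1 of the 8 called genes that passed whichever of the 6 arrays was omitted, with changes between -2.18 and -1.85. Both of its probe sets were bright and fell, 1448026_at by 1.90 and 1437745_at by 2.12 (adjusted p = 0.0124 and 0.0245 by limma). Taken singly, 1448026_at passed in 3 of the 6 fits with an array omitted and 1437745_at in 0.

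Its relatives of the same subfamily had positive changes as means of their probe sets. Chd6 measured 0.95, 0.30 and 0.54 in ASXL1Mt, against -1.47, -0.25 and -0.88 in mock, without overlap (change 1.47, adjusted p = 0.0615 by limma). Its bright probe set 1427384_at read 1.05, 0.68 and 1.00 in ASXL1Mt, against -0.71, -0.68 and -0.69 in mock and rose by 1.60 (adjusted p = 0.0163 by limma). In that probe set the mock arrays were nearly equal. Chd9 had a change of 0.62 (adjusted p = 0.0603 by limma) with a risen probe set, 1457672_at, at 0.29, 0.42 and 0.56 in ASXL1Mt, against -0.60, -0.29 and -0.75 in mock (change 0.97, adjusted p = 0.0429 by limma). Another Chd9 probe set, 1441339_at, not bright, went the other way without overlap and did not pass (change -0.41, adjusted p = 0.226 by limma). Chd8 had a change of 0.23 with overlapping groups. Whether Chd7 differs from its relatives was not tested.

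Chd3 and Chd4 are the ATPases of the NuRD complex. Chd4 read 0.14, 0.26 and 0.04 in ASXL1Mt, against -0.27, -0.06 and -0.08 in mock (change 0.28, adjusted p = 0.26 by limma). The groups came close to each other without overlap. Chd3 had a change of 0.93 (adjusted p = 0.0859 by limma). Chd1, which is needed for open chromatin in stem cells, was lower without overlap, by a change of -0.44 (adjusted p = 0.128 by limma).

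Kat2a was the 1 of 8 Kat genes that rose, and 0 fell. Kat2a, or GCN5, acetylates histone H3 as part of the SAGA and ATAC coactivators. It measured 0.17, 0.46 and 0.68 in ASXL1Mt, against -0.46, -0.55 and -0.35 in mock. The mock arrays were tight and the ASXL1Mt arrays scattered above them, with means of 0.43 ± 0.26 in ASXL1Mt and -0.45 ± 0.10 in mock (SD, n = 3 each). The rise was 1.85-fold (0.89 in log2 units, SE 0.18, limma adjusted p = 0.0387). Its probe set 1426783_at rose too, with 0.27, 0.46 and 0.46 in ASXL1Mt, against -0.65, -0.27 and -0.47 in mock (change 0.86, adjusted p = 0.0443 by limma).

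Kat2b, or PCAF, the paralogue of Kat2a, did not pass as a gene (change -0.15, 95% interval -0.79 to 0.49). Of its 3 probe sets 1457809_at, not bright, rose by 1.03 (adjusted p = 0.0432 by limma). It read 0.80, 0.77 and 0.30 in ASXL1Mt, against -0.30, -0.38 and -0.54 in mock, and its call was lost under each of the 3 rescalings. Kat14, the second acetyltransferase of ATAC, had a change of 0.57 without overlap (adjusted p = 0.0664 by limma). Among the MYST enzymes Kat6a, or MOZ, a translocation partner in human myeloid leukaemia, read 0.45, 0.25 and 0.20 in ASXL1Mt, against 0.16, -0.26 and -1.01 in mock. Its mock replicate 3 stood apart, and the change of 0.67 had an adjusted p = 0.243 by limma. Kat5, or TIP60, was lower without overlap (change -0.54, adjusted p = 0.091 by limma).

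Bromodomain proteins read acetylated lysines. Of the 6 Brd genes 0 rose and 0 fell, 0 had groups that did not overlap, and 0 passed at an unadjusted p under 0.05 by limma. Changes lay between -0.17 and 0.10, with a median of 0.044 that was -0.069 after cyclic loess, -0.042 after quantile normalization and -0.038 with equal array medians. The acetyl-lysine readers Brd2 and Brd3 of the BET class had changes of -0.15 (adjusted p = 0.704 by limma) and 0.10 (adjusted p = 0.679 by limma). Probe sets of the same gene differed. Brd1, a scaffold of MYST complexes, had a change of -0.17 over 4 probe sets (adjusted p = 0.771 by limma) and one of 0.54 from its bright probe set when bright probe sets were fitted alone (adjusted p = 0.00959 by limma). In that fit Brd7, a subunit of a SWI/SNF complex, also passed, at 0.48 (adjusted p = 0.0144 by limma), while its change was 0.04 over both of its probe sets. There 2 of 6 Brd genes rose and 0 fell, against 27.6% and 16.2% of all such genes. The bright probe sets of Brd1 and Brd7 count as bright through the ASXL1Mt arrays, where they are higher, so these passes are no independent support. Brd3 read -0.08, 0.18 and 0.05 in ASXL1Mt, against -0.02, -0.04 and -0.09 in mock. Brd9, a subunit of a noncanonical SWI/SNF complex, had a change of 0.06 with a 95% interval of -0.27 to 0.40.

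Arginine methyltransferases held 1 rise and 1 fall among 8 genes. Prmt2, a weak type I enzyme that places asymmetric dimethylarginine, read 0.48, 0.39 and 0.89 in ASXL1Mt, against -0.90, -0.42 and -0.65 in mock. All ASXL1Mt arrays were well above the mock arrays. It averaged 0.59 ± 0.27 in ASXL1Mt and -0.66 ± 0.24 in mock (SD, n = 3 each) and rose 2.37-fold (1.24 in log2 units, SE 0.21, limma adjusted p = 0.0267). Neither of its probe sets was bright. Its probe set 1416844_at rose by 1.52 (adjusted p = 0.0446 by limma), with 0.44, 0.48 and 0.76 in ASXL1Mt, against -1.45, -0.44 and -1.01 in mock.

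Prmt9 is a type II enzyme that methylates the splicing factor SF3B2. It measured -0.74, -0.36 and -0.91 in ASXL1Mt, against 0.77, 0.69 and 0.18 in mock. ASXL1Mt replicate 2 and mock replicate 3 came nearest to each other, without overlap. Prmt9 was 2.32-fold lower (-1.22 in log2 units, SE 0.24, limma adjusted p = 0.0373). Its bright probe set 1455916_at read -0.63, -0.58 and -0.47 in ASXL1Mt, against 0.97, 0.72 and 0.47 in mock and fell by 1.28 (adjusted p = 0.0258 by limma). A further probe set that was not bright, 1457301_at, fell by 1.89, with -1.62, -0.47 and -1.58 in ASXL1Mt, against 0.97, 0.47 and 0.56 in mock (adjusted p = 0.0457 by limma).

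Prmt5, the main symmetric methyltransferase and a partner of the splicing machinery, read 0.14, 0.29 and 0.24 in ASXL1Mt, against -0.65, -0.46 and -0.14 in mock (change 0.64, adjusted p = 0.0804 by limma). Prmt6 had a change of 0.66 (adjusted p = 0.0549 by limma), also without overlap. Prmt1, the main asymmetric methyltransferase, read 0.42, 0.15 and 0.04 in ASXL1Mt, against -0.34, -0.05 and -0.04 in mock (change 0.34, adjusted p = 0.265 by limma). In all 3 genes each ASXL1Mt array was above each mock array. Prmt3, which methylates a ribosomal protein, gave a rise of 1.31 in probe set 1457332_at, at 0.55, 0.73 and 0.67 in ASXL1Mt, against -0.70, -0.55 and -0.73 in mock (adjusted p = 0.0179 by limma), but that probe set was not bright and the gene's change was 0.29 (adjusted p = 0.528 by limma).

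**Figure D3:**
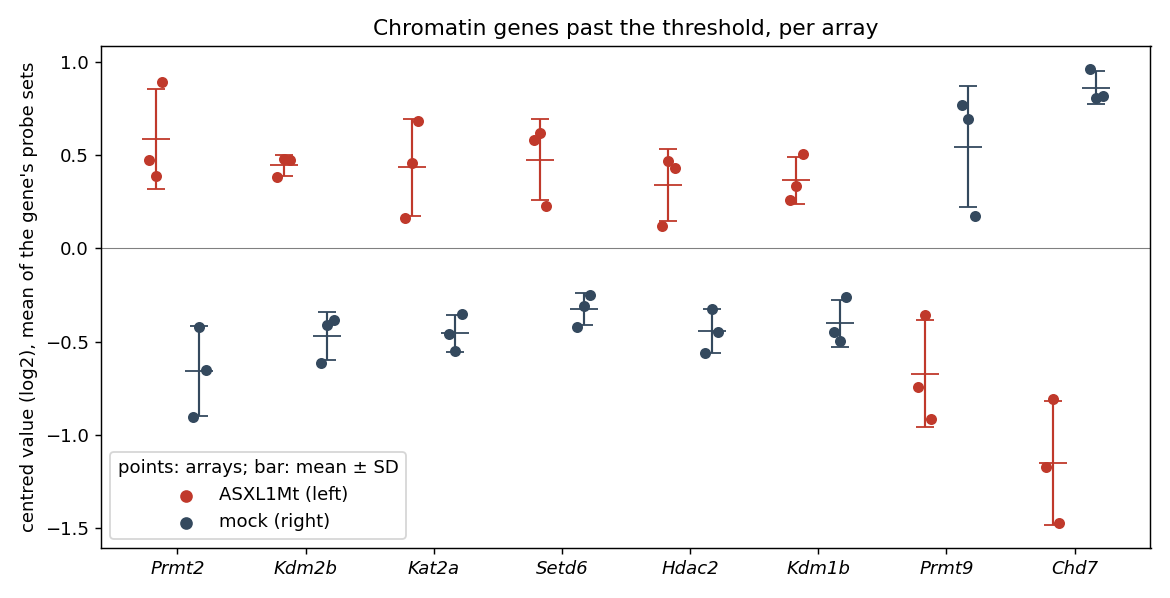
Centred value (vertical axis, log2, mean of a gene's probe sets) of the 8 genes past the threshold (horizontal axis) on each of 3 ASXL1Mt arrays (red, left) and 3 mock arrays (dark, right), with bars for mean ± SD. In all 8 genes the groups do not overlap, and Chd7, at -1.15 in ASXL1Mt against 0.86 in mock, is the widest apart.

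**Figure D4:**
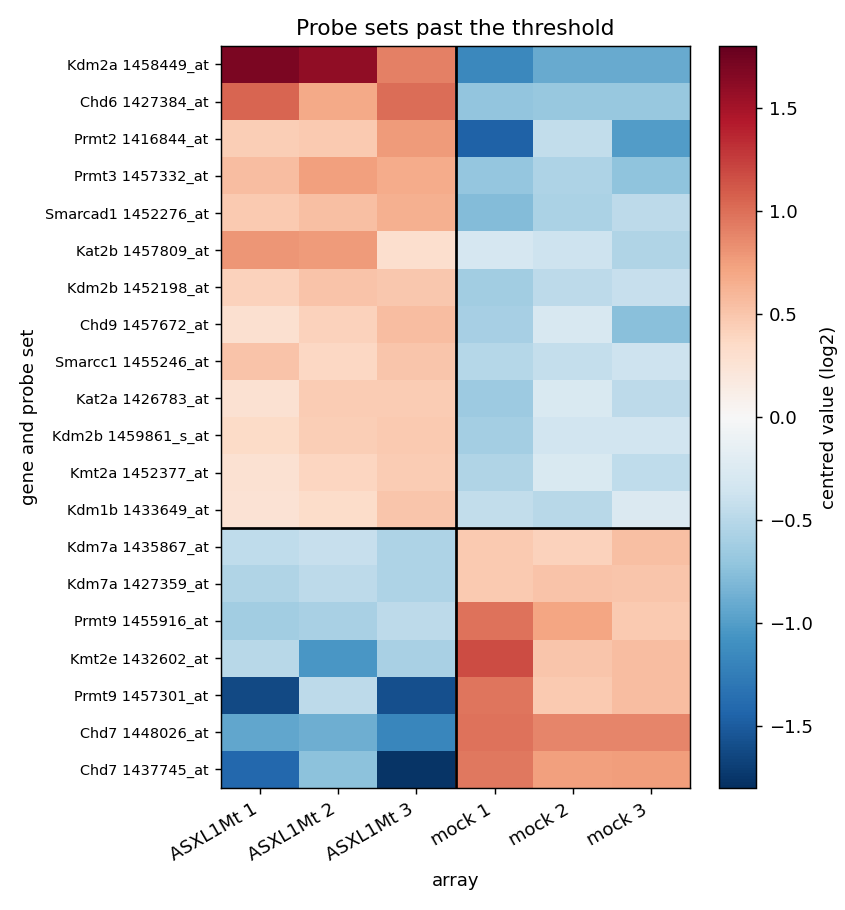
Centred value (colour, log2) of the 20 probe sets past the threshold (one per line, named by gene) on each of the 6 arrays (columns). The 13 upper probe sets are above 0 on every ASXL1Mt array and below 0 on every mock array, and the 7 lower ones are the reverse.

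Fitted alone, the bright probe sets gave more calls. Among 128 bright probe sets of these genes, 34 rose (26.6%) and 18 fell (14.1%), against 23.6% and 15.8% of all bright probe sets. Averaged over their bright probe sets alone, 28 of 76 genes rose and 9 fell, where 27.6% of all such genes rose and 16.2% fell. All 7 called genes that have a bright probe set kept their call in that fit. It tests the same values with the mostly more variable probe sets left out, so its calls, kept or added, are no independent support. Of 12 bright Hdac probe sets 41.7% rose and 16.7% fell, of 14 bright Setd probe sets 35.7% rose and 0% fell, and of 13 bright Kmt2 probe sets 7.69% rose and 23.1% fell. The difference between families was not tested.

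Partner and related genes were taken from 8 lists of chromatin genes, 154 genes in all, each counted once. Of these 12 rose (7.79%) and 1 fell (0.649%), against 6.63% higher and 4.75% lower among all genes, and their median change was 0.10, against 0.11. Among deacetylase corepressor subunits 2 of 26 rose, Mier2 by 1.12 (adjusted p = 0.0224 by limma) and Mta3, a NuRD subunit, by 0.81 (adjusted p = 0.0296 by limma). Of 7 sirtuins, the NAD-dependent deacylases, mitochondrial Sirt3 rose, by 1.03 (adjusted p = 0.0143 by limma). Sirt3 read 0.46, 0.52 and 0.64 in ASXL1Mt, against -0.47, -0.53 and -0.46 in mock, the groups being tight and far apart.

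Acetyltransferase scaffolds rose in 2 of 29 cases: Jade3, a scaffold of MYST complexes, by 1.10 (adjusted p = 0.0189 by limma), and Tada2a, the adaptor that joins Kat2a in ATAC, by 1.00 (adjusted p = 0.0383 by limma). Tada2a read 0.29, 0.49 and 0.34 in ASXL1Mt, against -0.92, -0.68 and -0.29 in mock. Of 13 cofactors of the Kmt2 enzymes 0 passed, and the smallest p belonged to Paxip1 at a change of 0.62 (adjusted p = 0.0502 by limma) and Psip1 at 0.65 (adjusted p = 0.0513 by limma). At an unadjusted p under 0.05 as deposited, the 154 genes together gave 37 higher (24.0%, against 18.1% of all genes) and 11 lower (7.14%, against 10.9%). This split depended on the scaling, with 28 and 20 after cyclic loess, 30 and 19 after quantile normalization, and 31 and 17 with equal array medians. Shares of all genes are not given for those fits. Further histone methyltransferases rose in 2 of 19 cases, Smyd2 by 1.24 (adjusted p = 0.0332 by limma) and Smyd4 by 1.08 (adjusted p = 0.0225 by limma).

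Demethylases outside the Kdm names gave 1 rise and 1 fall among 13. Jmjd6, a JmjC hydroxylase, fell by 0.79 (adjusted p = 0.0434 by limma). Uty, the Y-linked relative of a demethylase of lysine 27, rose by 1.99 (adjusted p = 0.0312 by limma), and the labels give no sex. Uty read 0.69, 0.53 and 0.86 in ASXL1Mt, against -0.52, -1.64 and -1.74 in mock, without overlap.

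Remodeller subunits outside the Smarc and Chd names gave rises and no fall, where 6.63% of all genes rose and 4.75% fell. Among 19 further SWI/SNF subunits Bcl11a, also a transcription factor of lymphoid and dendritic cells, was the 1 that rose, by 1.54 (adjusted p = 0.0195 by limma), beside the rise of 9 of 11 dendritic cell markers. A link between Bcl11a and these markers was not tested. Bcl11a read 0.50, 0.63 and 0.79 in ASXL1Mt, against -0.79, -1.30 and -0.61 in mock. Of 29 subunits of other remodellers 3 rose and 0 fell: Ruvbl1, a helicase of the INO80 and TIP60 complexes, by 0.80 (adjusted p = 0.025 by limma), Rsf1, a partner of ISWI, by 0.64 (adjusted p = 0.0483 by limma), and Bptf, the large subunit of the NURF remodeller, by 0.61 (adjusted p = 0.0456 by limma).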

How the data were processed

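Gene expression was measured on 6 Affymetrix mouse arrays, 3 ASXL1Mt and 3 mock, 1 per sample, grouped by their titles. Per the submitters' processing notes the authors made signals with MAS5. The deposited values are log values, read here as log2. The base and the centring of each probe set on its median over the arrays (0 within 5e-07) are not stated and were read from the values. Signal levels, and hence a filter on low values, are not recoverable, and the number of arrays limits the precision. The design text names an array version with fewer probe sets than the content it states; the table holds 45037.

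Symbols came from the platform annotation: 34945 probe sets had 1 symbol, 932 several and 9160 none here. All 86 genes matched the RefSeq table of GRCm38.p6 by gene ID. Tests used limma 3.58.1 (lmFit, then eBayes, in R 4.3.3), with group as the only term, over all 45037 probe sets and over 18193 gene means, with Benjamini-Hochberg adjustment and a threshold of 0.05. An intensity trend and the brightest probe set per gene need the levels that centring removed, so they were not used for the results given. The fit was checked on simulated data.

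The genes, lists and subclasses were chosen with earlier results of these data known. Genes were named by a rule: probe sets past the threshold without overlap, each family's 2 genes with the smallest p and all past the threshold, 17 well-known genes whatever they showed, and up to 4 genes per related list; others (such as Kdm3b, Hdac4 and Hdac9) were named after their values were seen. Alternatives were 14: quantile normalization, cyclic loess, equal array medians, trend and robust variance, replicate block, bright probe sets alone, the probe set with the smallest spread, omission of _s_at and _x_at probe sets, and omission of each array.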

Additional observations from a re-analysis of the deposited data

How the results depend on the processing

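Of the 8 called genes, 8 kept their call with trend and robust variance and with the smallest-spread probe set, 7 under quantile normalization and with equal array medians (Setd6 lost), 4 after cyclic loess (Hdac2, Kat2a, Kdm1b and Setd6 lost), 5 without _s_at and _x_at probe sets (Hdac2, Kat2a and Setd6 lost) and 7 of the 7 that have a bright probe set when bright probe sets were fitted alone. No called gene changed sign. The smallest-spread probe set was picked by its spread within groups on these same arrays, which favours calls there. Brightness was also read from the tested values, and centring removed the levels that a trend needs. Calls kept or gained in these fits are therefore no independent support. The causes of these shifts were not tested, except that the fits without an array hold fewer samples. With bright probe sets alone, 4067 of all probe sets rose and 2711 fell, as did 34 and 18 probe sets and 28 and 9 genes of the chromatin families and 50 and 14 related genes. With trend and robust variance 3555 of all probe sets, 23 probe sets and 12 genes of the families and 20 related genes rose. In that fit 2261 of all probe sets, 13 probe sets and 6 genes of the families and 4 related genes fell. With the smallest-spread probe set 20 genes and 39 related genes rose and 7 and 8 fell, and the medians were 0.19 for Smarc and 0.058 for Chd genes. After cyclic loess 8 probe sets, 2 genes and 9 related genes rose and 10, 3 and 2 fell, and the medians were -0.078 for Kdm, 0.11 for Setd, 0.17 for Smarc, 0.10 for Chd and -0.069 for Brd genes. After quantile normalization 11 probe sets and 5 genes rose and 11 and 4 fell, and the medians were -0.068 for Kdm, 0.13 for Setd, 0.21 for Smarc, 0.13 for Chd and -0.042 for Brd genes. With equal array medians 9 probe sets and 5 genes rose and 9 and 4 fell, and the medians were -0.046 for Kdm, 0.22 for Smarc and -0.038 for Brd genes. Of all probe sets, 1626 rose and 1894 fell after cyclic loess, 1751 and 1906 after quantile normalization and 1734 and 1740 with equal array medians. Counts over all genes are not given for the alternatives other than the bright fit. The families' gene counts there, including those with the smallest-spread probe set, thus have no background share and are no result about the families. Without _s_at and _x_at probe sets 3 genes rose, 0 related genes fell (limma; 10 at an unadjusted p under 0.05), and the Kat median was -0.12. With an array left out, counts ranged between 27 and 511 for rises and 39 and 631 for falls of all probe sets, 0 and 4 and 0 and 2 for the families' probe sets, 0 and 1 and 1 and 2 for their genes, and 0 and 3 and 0 and 1 for related genes; medians lay between 0.039 and 0.17 for Kdm, 0.33 and 0.49 for Hdac, 0.16 and 0.33 for Setd, 0.13 and 0.36 for Smarc, 0.09 and 0.26 for Kmt2, 0.19 and 0.23 for Chd, -0.017 and 0.22 for Kat, -0.044 and 0.11 for Brd and 0.24 and 0.49 for Prmt genes. Every omission lowered these counts of all probe sets. Deviations of same-numbered samples correlated at -0.009, -0.012 and -0.009 over all probe sets. The median SD within groups was 0.81 for those that were not bright and 0.18 for the bright. Noise of that size can hide shared deviations, so these correlations cannot decide whether the numbers pair the samples. With a replicate block 0 probe sets and 0 genes of any kind passed in limma. At an unadjusted p under 0.05 in that fit, 38 of the families' probe sets were higher (18.4%, against 12.9% of all) and 22 lower (10.6%, against 8.99%). Reversed genes were Brd1, at -0.17 as a mean of 4 probe sets and 0.54 from bright probe sets alone or the smallest-spread probe set (adjusted p = 0.00959 and 0.0332 by limma), and Kdm3b, at 0.04 as a mean and -0.51 from the smallest-spread probe set (adjusted p = 0.0228 by limma), but 0.58 from its bright probe set.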
